A study of Bos taurus with 4 samples.

Results

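The enzymes of glycolysis, the pentose phosphate pathway and the tricarboxylic acid (TCA) cycle, with the genes that join these routes, were followed in the inner cell mass (ICM) of bovine blastocysts. The members were a list of 44 genes, taken by name and pathway step, with no threshold on a value. Of these, 37 were found by symbol in the array annotation, out of 12545 genes represented in all. *GAPDH*, *ENO1*, *PKM*, *DLD*, *RPIA*, *ACO1* and *SUCLA2* were not matched and were not analysed here.

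Glycolysis splits glucose into pyruvate, and gluconeogenesis runs back along most of the same steps with its own enzymes at the irreversible ones. The pentose phosphate pathway takes glucose 6-phosphate aside to make NADPH and ribose 5-phosphate, and returns the surplus carbon to glycolysis through transketolase and transaldolase. Pyruvate is reduced to lactate or enters the mitochondrion, where pyruvate dehydrogenase feeds it into the TCA cycle. Mammalian embryos are known to rely on pyruvate and lactate in early cleavage and to take up more glucose by the blastocyst stage.

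ICM-PD came from embryos produced in vitro and cultured with PD0325901, an inhibitor of MEK, the kinase that activates ERK. ICM-DMSO came from embryos cultured with the solvent DMSO. The labels call these groups ERK-inhibited and control. Embryos of both groups were moved to fresh medium on day 5, were kept at 7% oxygen and were collected on day 9, and their ICMs were cut from the trophectoderm by hand with needles. There were 2 ICM-PD and 2 ICM-DMSO arrays, all of them against 1 common pool of blastocyst RNA, with the ICM sample in Cy3 for replicate a and in Cy5 for replicate b. A sample was RNA from dissected ICMs harvested together by treatment, so it could hold epiblast, hypoblast and attached trophectoderm cells. In such bulk samples, fewer cells of a type and less RNA per cell cannot be told apart. Each value below is a log2 ratio of ICM sample over pool, given for replicate a and then for replicate b, unless it is called a difference (ICM-PD minus ICM-DMSO, from limma).

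The 4 arrays differed in quality. The median ICM signal was 110 and 133 on the ICM-PD arrays and 167 and 175 on the ICM-DMSO arrays, and 83.7% and 97.5% of probes on the ICM-PD arrays lay over the 95th percentile of their negative controls, against 99.5% and 99.8% on the ICM-DMSO arrays. Spots were called uneven where the SD of their pixels was over 0.5 of their mean. They made up 34.2% and 10.3% on the ICM-PD arrays and 0.220% and 0.101% on the ICM-DMSO arrays. Of the 37 members, 12 had an uneven spot on ICM-PD replicate a, 6 on ICM-PD replicate b and 0 on the ICM-DMSO arrays. The spots of *PFKL* and *MDH1* on ICM-PD replicate a were below background, with raw signals of 10.6 and 12.5, so their values on that array carry little information. A restriction to probes whose spots were uniform on every array was chosen after the data had been seen. With it 32 members were measured, of which 8 were higher and 2 lower in ICM-PD at an unadjusted p under 0.05. This stood beside 9.06% higher and 7.01% lower of 8707 genes. The 2 lower members were then *FH* and *PDK1*, whereas without the restriction they were *PFKM* and *IDH1*.

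Markers of the ICM and of its neighbouring cells were read beside the enzymes. The epiblast factors *NANOG* and *SOX2* were above the pool on all 4 arrays, with mean log2 ratios of 2.69 and 1.25 in ICM-PD and 1.35 and 0.97 in ICM-DMSO. Of the 8 measured epiblast markers, 3 were above the pool on all 4 arrays, *NANOG* and *SOX2* among them, and 5 stood on both sides. Of the 13 measured hypoblast markers, 2 were above it, 4 below it and 7 on both sides. Of the 18 measured trophectoderm markers, 9 were below the pool on all 4 arrays, 1 was above it and 8 stood on both sides. Over all genes, 15.5% were above and 15.7% below the pool on all 4 arrays. Of the epiblast markers, 8 of 17 were measured, and their log2 mean ratio was 0.96 on both ICM-PD arrays and 0.61 and 0.51 on the ICM-DMSO arrays, with 2 of them higher and 1 lower in ICM-PD at an unadjusted p under 0.05. For 13 of 19 hypoblast markers it was 0.19 and 0.10 in ICM-PD and 0.34 and 0.28 in ICM-DMSO, and 5 of them were lower and 1 was higher at an unadjusted p under 0.05. For 18 of 25 trophectoderm markers it was -0.33 and 0.10 in ICM-PD and -0.26 and 0.08 in ICM-DMSO, with 3 higher and 4 lower. For 10 of 13 cumulus and granulosa markers it was -0.07 and 0.22 in ICM-PD and -0.15 and 0.10 in ICM-DMSO, with 3 higher and 1 lower. Over all genes, 8.77% were higher and 5.43% lower. The trophectoderm and cumulus means differed more between replicates a and b than between groups. *TFAP2C* had -0.81 and 1.04 in ICM-PD and -1.40 and 1.75 in ICM-DMSO, and was saturated on 2 arrays. *STAR* had -0.45 and 0.93 in ICM-PD and -0.67 and 0.75 in ICM-DMSO. *POU5F1*, *OTX2*, *PDGFRA*, *CDX2*, *KRT8*, *KRT18* and *IFNT* were not matched and were not analysed here. The epiblast mean was carried by *NANOG*, and without it the list was at 0.35 and 0.40 in ICM-PD and 0.45 and 0.34 in ICM-DMSO, so that the groups overlapped. *KLF4* had a difference of -0.38 and *ZIC2* of -0.58, where *ZIC2* had a spot below background on ICM-PD replicate a. The median difference was 0.05 over the epiblast and -0.13 over the hypoblast markers. The part of such marker shifts in the differences of the enzymes was not tested.

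The largest difference among the enzymes was in *FBP1*, which encodes the gluconeogenic enzyme fructose bisphosphatase and was higher in ICM-PD, and the 3 measured pentose phosphate members were higher as well, all at an unadjusted p. No member and no other probe passed an adjusted p of 0.05 (0 of 43653 probes and 0% of genes, smallest adjusted p = 0.263, limma with Benjamini-Hochberg adjustment), so the counts that follow use an unadjusted p. With the ratios processed by the authors 319 probes passed the adjusted threshold, and 43 did when no background was removed. At an unadjusted p under 0.05, 2403 probes were higher and 2022 lower in ICM-PD. Of the members, 6 of 37 (16.2%) were higher, beside 8.77% of all genes, and 2 of 37 (5.41%) were lower, beside 5.43% of all genes. The higher members were *FBP1*, *GPI*, *PGD*, *TKT*, *TALDO1* and *OGDH*, and the lower members were *PFKM* and *IDH1*. The members were brighter than most genes, with a median raw signal of 3116 against 383 over all genes. Among genes with a raw signal of 1000 or more, a limit chosen after the values were seen, 5 of 27 members (18.5%) were higher, beside 15.9% of all such genes, and 1 of 27 (3.7%) was lower, beside 9.11%. The share of higher members was thus closer to that of all genes when only bright genes were read.

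The counts also depended on how the arrays were scaled. When each array was centred on its median in place of loess, 2 members were higher and 6 lower, and over all genes the split moved to 302 higher and 1789 lower, beside 1100 higher and 681 lower with loess. The median difference over all genes was then -0.05, and over bright genes -0.14, beside 0.01 and 0.03 with loess. The median difference of the members was 0.06 with loess and -0.07 with median centring. *FBP1* and *TKT* were higher at an unadjusted p under 0.05 with both scalings, and *PFKM* and *IDH1* were lower with both.

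**Figure D1:**
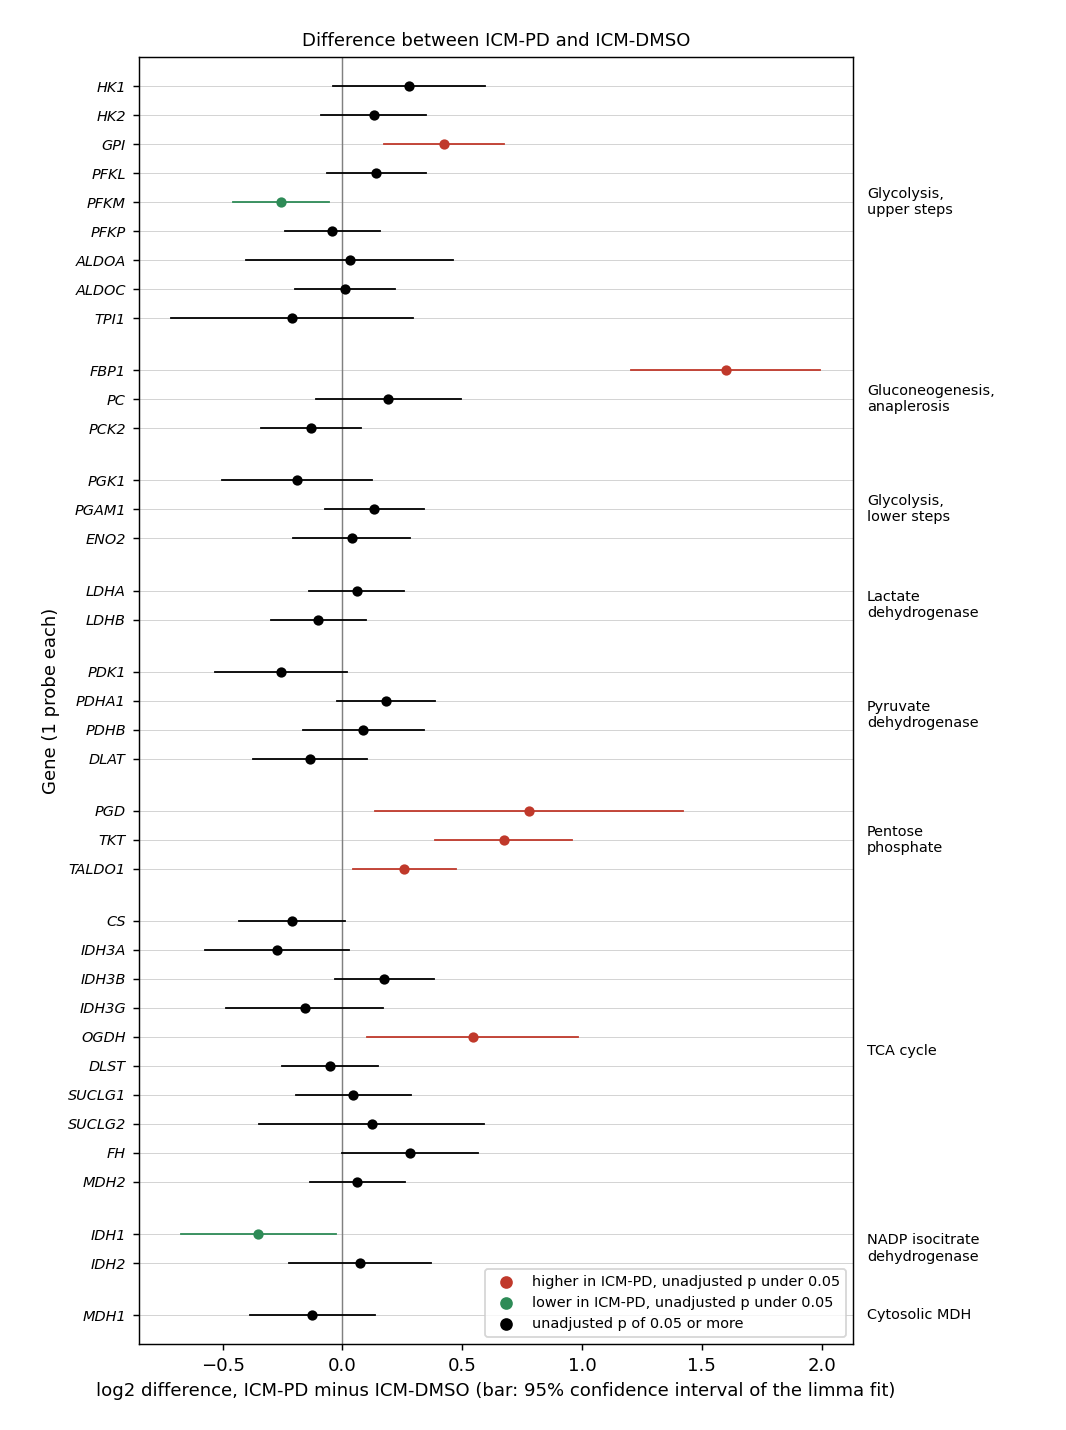
Log2 difference (x axis, ICM-PD minus ICM-DMSO) of the 37 measured enzymes (y axis, grouped by step), each from 1 probe, with points for the limma estimate and bars for its 95% confidence interval. Red marks the 6 genes higher and green the 2 genes lower in ICM-PD at an unadjusted p under 0.05, and *FBP1* lies apart at 1.60.

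Over the whole list, 23 members had a positive and 14 a negative difference, and the range ran from -0.35 (*IDH1*) to 1.60 (*FBP1*). A difference of 0.5 or more was found in 4 members (10.8%, beside 2.44% of all genes), namely *FBP1*, *PGD*, *TKT* and *OGDH*, and -0.5 or less in 0 members (beside 1.22%). Both ICM-PD arrays were above both ICM-DMSO arrays in 12 members (32.4%, beside 20% of all genes) and below both in 5 members (13.5%, beside 17.4%). Comparing arrays of the same dye orientation, 28 members (75.7%) differed in the same direction in both, beside 59.8% of all genes. On all 4 arrays, 10 members were above the pool (27%, beside 15.5% of all genes) and 7 were below it (18.9%, beside 15.7%). The other 20 members stood on both sides of it. The members were brighter than most genes, and these shares were not taken among bright genes alone. The part of signal level in them was therefore not tested.

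**Figure D2:**
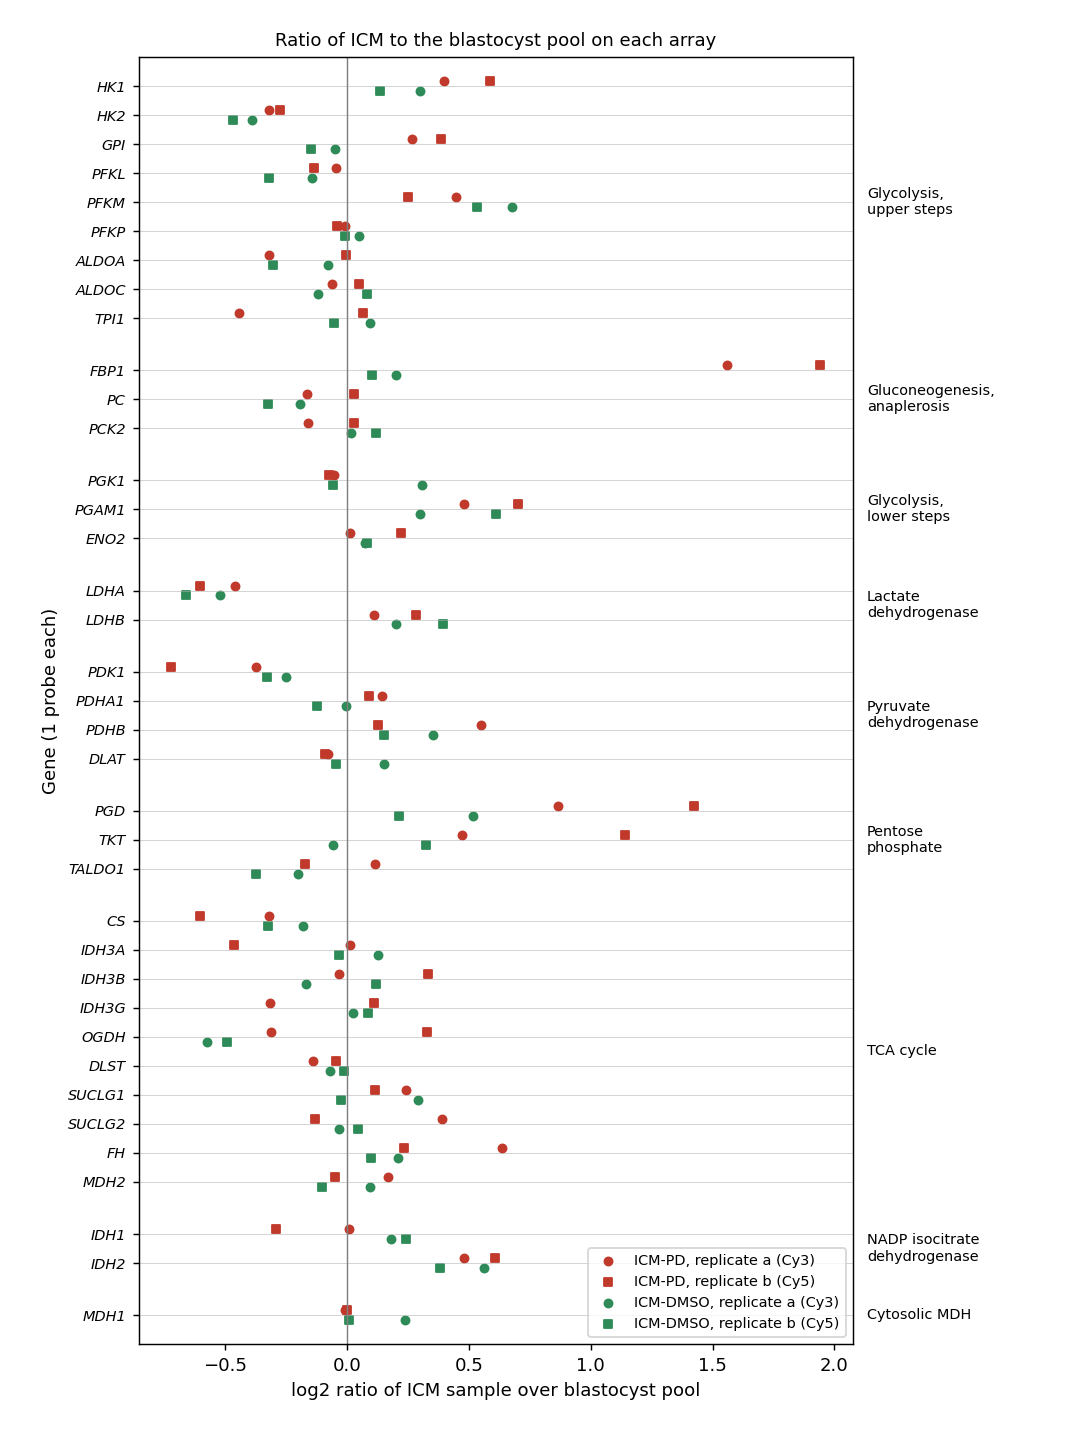
Log2 ratio of ICM sample over blastocyst pool (x axis) on each of the 4 arrays for the 37 measured enzymes (y axis), with ICM-PD in red above ICM-DMSO in green, circles for replicate a and squares for replicate b. The red points of *FBP1*, *PGD* and *TKT* lie to the right of their green points, and most other genes lie within 0.5 of the pool on all arrays.

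Gluconeogenesis was represented by *FBP1*, *PC* and *PCK2*. *FBP1*, which removes a phosphate from fructose 1,6-bisphosphate and so opposes phosphofructokinase, had log2 ratios of 1.56 and 1.94 in ICM-PD, against 0.20 and 0.10 in ICM-DMSO. Both ICM-PD arrays were far above the pool, whereas both ICM-DMSO arrays were close to it. The raw ICM signals were 458 and 701 on the ICM-PD arrays and 258 and 224 on the ICM-DMSO arrays. The difference was 1.60 (95% confidence interval 1.21 to 1.99), or 3.03-fold higher in ICM-PD, with an unadjusted p of 0.000392 and an adjusted p of 0.270 (limma). It was the only member with a difference of 2-fold or more (2.7% of the members, beside 0.335% of all genes). It passed the adjusted threshold without background correction and with the ratios processed by the authors, where *TKT* passed as well. The gene passed an unadjusted p of 0.05 in 12 of 12 alternative settings, but its size ranged widely, to 0.91 with the mean of the local background in place of the median. Its spot on ICM-PD replicate a was uneven, and with only uniform spots its dimmer probe was used and gave 0.56 (unadjusted p = 0.00176). Without ICM-PD replicate a the difference was 1.79, and without ICM-PD replicate b it was 1.41.

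*PC*, the pyruvate carboxylase that makes oxaloacetate from pyruvate, had -0.16 and 0.03 in ICM-PD and -0.19 and -0.32 in ICM-DMSO, a difference of 0.19 (95% confidence interval -0.11 to 0.49). *PCK2*, the mitochondrial enzyme that turns oxaloacetate into phosphoenolpyruvate, had -0.16 and 0.03 in ICM-PD and 0.02 and 0.12 in ICM-DMSO, a difference of -0.13 (95% confidence interval -0.34 to 0.08). By their brightest probes the 3 genes of the group thus did not share 1 direction, and only *FBP1* passed an unadjusted p of 0.05. The dimmer probe of *PCK2* had a difference of 0.06, of the opposite sign. Those of *PC* had 0.66, with an uneven spot on ICM-PD replicate a, and 0.04.

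The pentose phosphate pathway was represented by *PGD*, *TKT* and *TALDO1*. Each was higher on both ICM-PD arrays than on either ICM-DMSO array, as were 20% of all genes. *PGD*, the 6-phosphogluconate dehydrogenase of the oxidative branch that yields NADPH, had 0.87 and 1.43 in ICM-PD, against 0.52 and 0.21 in ICM-DMSO. It was above the pool on all 4 arrays, and replicate b of ICM-PD was the highest. The difference was 0.78 (95% confidence interval 0.14 to 1.42), or 1.72-fold, with an unadjusted p of 0.0283 and an adjusted p of 0.430 (limma). All 5 probes of *PGD* had a positive difference, from 0.18 to 0.78, and 4 of them had an unadjusted p under 0.05.

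*TKT*, the transketolase that moves ketol units between sugar phosphates, had 0.47 and 1.14 in ICM-PD, against -0.06 and 0.32 in ICM-DMSO. The ICM-PD arrays were above the ICM-DMSO arrays, and in both groups replicate b was the higher. The difference was 0.67 (95% confidence interval 0.39 to 0.96), or 1.59-fold, with an unadjusted p of 0.00301 and an adjusted p of 0.300 (limma). Its dimmer probe had a difference of 0.10 (unadjusted p = 0.461). The difference of the brightest probe was 1.01 without ICM-PD replicate a (unadjusted p = 0.00578) and 0.34 without ICM-PD replicate b (unadjusted p = 0.146), and 0.48 without ICM-DMSO replicate a (unadjusted p = 0.229).

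*TALDO1*, the transaldolase of the non-oxidative branch, had 0.12 and -0.17 in ICM-PD, against -0.20 and -0.37 in ICM-DMSO. The difference was small, 0.26 (95% confidence interval 0.04 to 0.47), or 1.20-fold, with an unadjusted p of 0.0289 and an adjusted p of 0.432 (limma). Its groups did not overlap, but the lower ICM-PD array and the higher ICM-DMSO array were nearly level. The dimmer probe of *TALDO1* had a difference of -0.10, of the opposite sign, and the brightest probe had 0.07 after median centring. The call held in 4 of 12 alternative settings for *TALDO1*, 8 of 12 for *TKT* and 9 of 12 for *PGD*, which did not pass with median centring (0.57, unadjusted p = 0.0846) or the background mean (0.75, unadjusted p = 0.103). The spots of the brightest probes of all 3 genes were uniform on all 4 arrays.

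**Figure D3:**
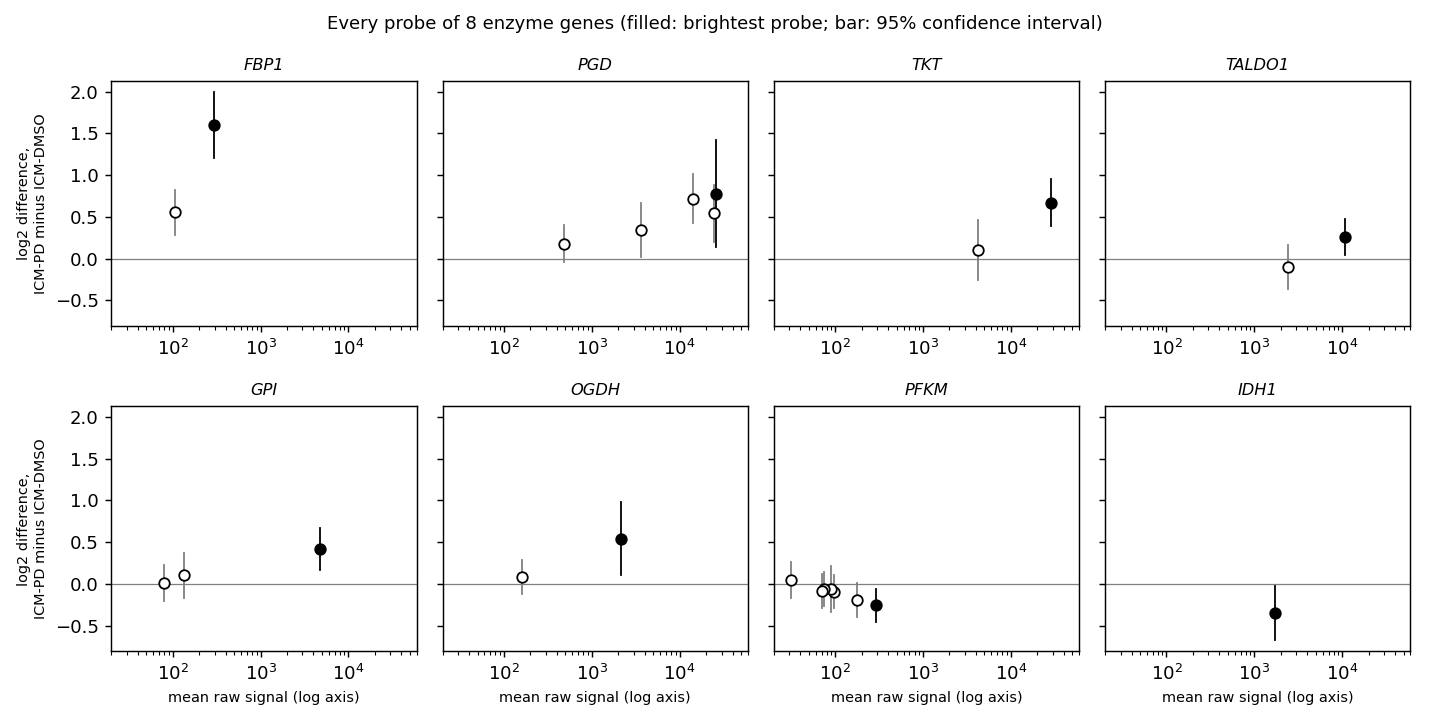
Log2 difference (y axis, ICM-PD minus ICM-DMSO) against mean raw signal (x axis, log scale) for every probe of the 8 enzyme genes with an unadjusted p under 0.05, with the brightest probe filled and bars for the 95% confidence interval. All probes of *PGD* lie above 0, whereas the dimmer probes of *TKT*, *TALDO1*, *GPI* and *OGDH* lie near 0.

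Among the upper steps of glycolysis, from hexokinase to triose phosphate isomerase, 9 genes were measured. At an unadjusted p under 0.05 *GPI* was higher and *PFKM* lower, beside 8.77% higher and 5.43% lower of all genes. *GPI*, which interconverts glucose 6-phosphate and fructose 6-phosphate at the branch to the pentose phosphate pathway, had 0.27 and 0.39 in ICM-PD, against -0.05 and -0.15 in ICM-DMSO. ICM-PD was above the pool and ICM-DMSO below it. The difference was 0.42 (95% confidence interval 0.17 to 0.67), or 1.34-fold, with an unadjusted p of 0.00979 and an adjusted p of 0.352 (limma). It was 0.22 with median centring (unadjusted p = 0.177), and the other probes of *GPI* had differences of 0.10 and 0.01.

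*PFKM*, the muscle-type subunit of phosphofructokinase, had 0.45 and 0.25 in ICM-PD, against 0.68 and 0.54 in ICM-DMSO, so it was above the pool on all 4 arrays and less so in ICM-PD. The difference was -0.26 (95% confidence interval -0.46 to -0.06), with an unadjusted p of 0.0238 and an adjusted p of 0.412 (limma). Of its 7 probes, 6 had a negative difference, from -0.06 to -0.26, and the dimmest had 0.05. Its spot on ICM-PD replicate b was uneven, and the call held in 3 of 12 alternative settings.

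The other phosphofructokinase subunits had smaller differences. *PFKL*, the liver type, had -0.04 and -0.14 in ICM-PD and -0.14 and -0.32 in ICM-DMSO, with the spot of ICM-PD replicate a below background. *PFKP*, the platelet type, had -0.01 and -0.04 in ICM-PD and 0.05 and -0.01 in ICM-DMSO. The differences were 0.14 (95% confidence interval -0.07 to 0.35) for *PFKL* and -0.04 (-0.24 to 0.15) for *PFKP*. The difference of *PFKL* was negative when no background was removed (-0.27) and in the ratios the authors had processed (-0.23), and the cause was not tested.

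The hexokinases trap glucose by phosphorylating it. *HK1* had 0.40 and 0.59 in ICM-PD and 0.30 and 0.13 in ICM-DMSO, all above the pool. *HK2* had -0.32 and -0.28 in ICM-PD and -0.39 and -0.47 in ICM-DMSO, all below it. Both genes were higher on both ICM-PD arrays than on the ICM-DMSO arrays, with differences of 0.28 (95% confidence interval -0.04 to 0.60, unadjusted p = 0.0727) for *HK1* and 0.13 (-0.09 to 0.35, unadjusted p = 0.171) for *HK2*, and neither passed the threshold. The dimmer probe of *HK2* had a difference of -0.13.

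Of the aldolases, which split fructose 1,6-bisphosphate, *ALDOA* had -0.32 and -0.0013 in ICM-PD and -0.08 and -0.30 in ICM-DMSO. *ALDOC* had -0.06 and 0.05 in ICM-PD and -0.12 and 0.08 in ICM-DMSO. The groups overlapped for both genes, and the differences were 0.03 (95% confidence interval -0.40 to 0.46) and 0.01 (-0.20 to 0.22). *TPI1*, the isomerase of the triose phosphates, had a difference of -0.21 (-0.72 to 0.30), with a low value on ICM-PD replicate a alone (-0.44).

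The lower steps of glycolysis, from phosphoglycerate kinase to enolase, were represented by 3 genes, of which 0 passed an unadjusted p of 0.05. *PGAM1*, the phosphoglycerate mutase, had 0.48 and 0.70 in ICM-PD and 0.30 and 0.61 in ICM-DMSO and was the third highest member relative to the pool, with a mean over all arrays of 0.52 beside 0.95 for *FBP1* and 0.76 for *PGD*. Its groups overlapped, and its difference was 0.13 (95% confidence interval -0.07 to 0.34). The 3 other probes of *PGAM1* had negative differences, from -0.14 to -0.66, so its direction depended on the probe. On ICM-PD replicate a, the spots of the probes at -0.66 and -0.18 were uneven. The raw ICM signal of the probe at -0.66 was 298 there, against 13346 on ICM-PD replicate b. *ENO2*, the neuronal enolase, had 0.01 and 0.22 in ICM-PD and 0.08 and 0.08 in ICM-DMSO, a difference of 0.04 (-0.21 to 0.28). *PGK1*, the kinase of the first step that yields ATP, had a difference of -0.19 (-0.50 to 0.12), with ICM-DMSO replicate a (0.31) apart from the other arrays.

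Lactate dehydrogenase interconverts pyruvate and lactate, with *LDHA* encoding the muscle-type and *LDHB* the heart-type subunit. *LDHA* had -0.46 and -0.60 in ICM-PD and -0.52 and -0.66 in ICM-DMSO, and was the lowest member relative to the pool, with a mean of -0.56. *LDHB* had 0.11 and 0.28 in ICM-PD and 0.20 and 0.39 in ICM-DMSO. By their brightest probes the subunits stood on opposite sides of the pool on all 4 arrays, while 2 of the other *LDHB* probes were slightly below it on 1 ICM-PD array each. The differences between groups were 0.06 (95% confidence interval -0.14 to 0.26) for *LDHA* and -0.10 (-0.30 to 0.10) for *LDHB*. All 4 probes of *LDHB* had a negative difference, from -0.10 to -0.28, of which the probe at -0.28 had an unadjusted p of 0.0185. On ICM-PD replicate a, however, the spots of the brightest *LDHB* probe and of the probes at -0.28 and -0.20 were uneven. The spot of the probe at -0.23 was uniform there. The brightest *LDHA* probe also had an uneven spot on that array.

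At the entry to the TCA cycle, *PDK1*, the kinase that switches pyruvate dehydrogenase off, had -0.37 and -0.72 in ICM-PD, against -0.25 and -0.33 in ICM-DMSO. It was below the pool on all 4 arrays, with a mean of -0.42, the second lowest of the members after *LDHA* and ahead of *HK2* at -0.36. Both ICM-PD arrays were below both ICM-DMSO arrays, but the difference of -0.26 (95% confidence interval -0.53 to 0.02, unadjusted p = 0.0608) did not pass the threshold. Its other probes had differences of -0.05 and -0.12. *PDK1* was lower at an unadjusted p under 0.05 with the background mean (unadjusted p = 0.0280), median centring (0.00602), the authors' ratios (0.0472) and uniform spots (0.0449), and without ICM-PD replicate a (0.0101). The subunits of the complex had differences of 0.18 (-0.02 to 0.38) for *PDHA1*, 0.09 (-0.16 to 0.34) for *PDHB* and -0.14 (-0.37 to 0.10) for *DLAT*. With the settings used throughout, none of these 4 genes passed an unadjusted p of 0.05.

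Of the TCA cycle, 10 of 11 listed genes were measured. At an unadjusted p under 0.05 *OGDH* alone was called, as higher, beside 8.77% higher and 5.43% lower of all genes. *OGDH*, the first component of the 2-oxoglutarate dehydrogenase complex, had -0.31 and 0.33 in ICM-PD, against -0.58 and -0.49 in ICM-DMSO. The ICM-DMSO arrays were close to each other, whereas the ICM-PD arrays stood on either side of the pool. The difference was 0.54 (95% confidence interval 0.10 to 0.98), or 1.46-fold, with an unadjusted p of 0.0269 and an adjusted p of 0.423 (limma). It was 0.86 without ICM-PD replicate a (unadjusted p = 0.000823) and 0.22 without ICM-PD replicate b (unadjusted p = 0.0770). The dimmer probe had a difference of 0.08 (unadjusted p = 0.318), and the call held in 6 of 12 alternative settings.

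The other TCA genes had smaller differences. *CS*, the citrate synthase that admits acetyl-CoA, was below the pool on all 4 arrays and had a difference of -0.21 (95% confidence interval -0.43 to 0.01, unadjusted p = 0.0586). The subunits of the NAD-dependent isocitrate dehydrogenase differed in sign, with -0.27 (-0.57 to 0.03) for the catalytic *IDH3A*, 0.18 (-0.03 to 0.38) for *IDH3B* and -0.16 (-0.48 to 0.17) for *IDH3G*. The spots of all these subunits on ICM-PD replicate a were uneven, and each interval included 0. The brightest probe of *FH*, the fumarase, was above the pool on all 4 arrays, with a difference of 0.28 (-0.0036 to 0.57, unadjusted p = 0.0518). Its spot on ICM-PD replicate b was uneven, and 2 dimmer probes of *FH* had differences of -0.32 (unadjusted p = 0.0129) and -0.33 (unadjusted p = 0.0103), so its probes disagreed in direction. *DLST*, *SUCLG1* and *SUCLG2* had differences of -0.05, 0.05 and 0.12.

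Isocitrate dehydrogenases that use NADP are another source of NADPH. *IDH1*, the cytosolic enzyme, had 0.01 and -0.29 in ICM-PD, against 0.18 and 0.24 in ICM-DMSO. The ICM-DMSO arrays were both above the pool and the ICM-PD arrays were level with it or below. The difference was -0.35 (95% confidence interval -0.68 to -0.03), with an unadjusted p of 0.0398 and an adjusted p of 0.468 (limma), the most negative of the members. *IDH1* had 1 probe, which was uneven on ICM-PD replicate a. The difference was -0.50 without that array (unadjusted p = 0.00547) and -0.20 without ICM-PD replicate b (unadjusted p = 0.0932). *IDH2*, the mitochondrial enzyme, had 0.48 and 0.61 in ICM-PD and 0.56 and 0.38 in ICM-DMSO. It was above the pool in both groups, which overlapped, and its difference was 0.07 (-0.22 to 0.37).

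The malate dehydrogenases interconvert malate and oxaloacetate on either side of the mitochondrial membrane. *MDH2*, the mitochondrial enzyme, had 0.17 and -0.05 in ICM-PD and 0.09 and -0.10 in ICM-DMSO. *MDH1*, the cytosolic enzyme, had -0.01 and 0.00 in ICM-PD and 0.24 and 0.01 in ICM-DMSO, with the value on ICM-PD replicate a from the spot below background. The differences were 0.06 (95% confidence interval -0.14 to 0.26) for *MDH2* and -0.13 (-0.39 to 0.13) for *MDH1*, and both intervals included 0.

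**Figure D4:**
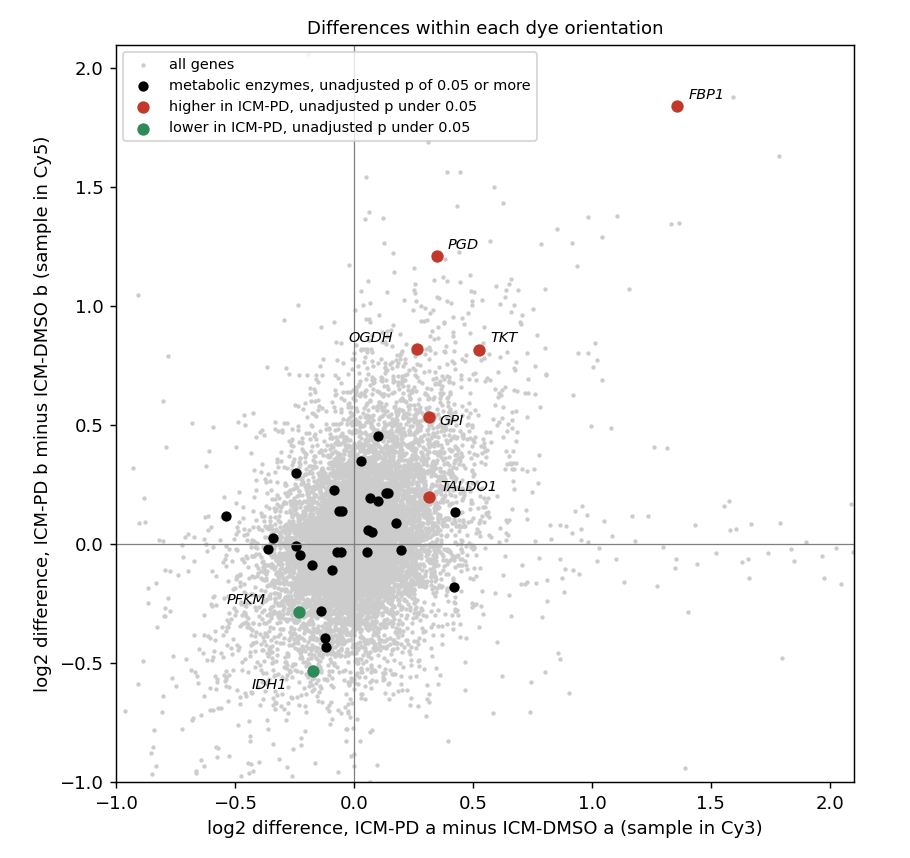
Log2 difference between ICM-PD and ICM-DMSO with the ICM samples in Cy3 (x axis, replicates a) against the same difference with the ICM samples in Cy5 (y axis, replicates b), for all genes in grey and the enzymes in black, red or green, with 84 grey genes outside the axes. *FBP1* is at the upper right with 1.36 and 1.84, and the 8 named enzymes lie in the quadrants of equal sign, as their selection favours.

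The differences were also read within each dye orientation. The 8 members had been called from the mean of these differences and their disagreement, so a shared sign is no independent support. The difference of *FBP1* was 1.36 with the samples in Cy3 and 1.84 with the samples in Cy5. It was 0.53 and 0.82 for *TKT*, and 0.32 and 0.20 for *TALDO1*. It was 0.35 and 1.21 for *PGD*, and 0.27 and 0.82 for *OGDH*. The differences of *PGD* and *OGDH* were larger between replicates b than between replicates a. For *GPI* it was 0.31 and 0.53, for *PFKM* -0.23 and -0.28, and for *IDH1* -0.17 and -0.53. The median difference over all members was 0.03 in Cy3 and 0.09 in Cy5, beside 0.01 in each orientation over all genes.

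Arrays were then left out in turn. With 3 arrays the dye term could not be kept, so these fits were on group alone and both choices changed at once. Without the dye term and with all 4 arrays, *FBP1*, *GPI*, *PGD* and *IDH1* passed an unadjusted p of 0.05, and *TKT* (0.0608), *TALDO1* (0.114), *OGDH* (0.0688) and *PFKM* (0.0649) did not, so losses of these calls below are not tied to an array. *FBP1* and *GPI* passed an unadjusted p of 0.05 whichever of the 4 arrays was left out. *PGD* did not pass without ICM-DMSO replicate b (0.63, unadjusted p = 0.0995), and its difference was 0.50 without ICM-PD replicate b (unadjusted p = 0.0343). *TKT* did not pass without ICM-DMSO replicate b either (0.86, unadjusted p = 0.0690). *TALDO1* passed only without ICM-PD replicate b (0.40, unadjusted p = 0.0252), and had 0.11 without ICM-PD replicate a. *OGDH* and *PFKM* passed only without ICM-PD replicate a, as did *IDH1*. For *PFKM* the difference was -0.35 without that array (unadjusted p = 0.0301) and -0.16 without ICM-PD replicate b (unadjusted p = 0.210). Without an ICM-DMSO array, *OGDH* had 0.50 and 0.59, *PFKM* -0.19 and -0.33 and *IDH1* -0.38 and -0.32, for replicates a and b left out.

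Every member but 3 had more than 1 probe, 108 probes in all and up to 7 for a gene. Of the 71 dimmer probes, 50 had the sign of their gene's brightest probe. The median of the members' differences was 0.00039 when all probes of a gene were averaged, against 0.06 with the brightest probe, and *FBP1*, *TKT*, *PGD* and *OGDH* remained higher at an unadjusted p under 0.05. An array probe may also take up RNA of a closely related gene, and this was not tested.

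Genes connected with these routes were read from separate lists. Glucose, lactate and pyruvate transporters had 14 of 17 genes measured, of which 1 was higher and 0 lower at an unadjusted p under 0.05, beside 8.77% higher and 5.43% lower of all genes. This was *SLC2A8*, a glucose transporter of internal membranes, with 0.59 and 1.08 in ICM-PD and 0.34 and 0.01 in ICM-DMSO, and a difference of 0.66 (unadjusted p = 0.0407). Its spot on ICM-PD replicate a was uneven. The plasma membrane glucose transporters *SLC2A1* and *SLC2A3* had differences of 0.06 and 0.15, and the lactate carriers *SLC16A1* and *SLC16A3* of -0.08 and 0.10. *SLC2A3* had -0.76 and 0.78 in ICM-PD and -0.71 and 0.42 in ICM-DMSO, so its replicates differed more than its groups. The spot of *SLC2A3* on ICM-PD replicate b was uneven. The pyruvate carrier subunits *MPC1* and *MPC2* had 0.16 and 0.11. Of 16 measured enzymes of glycolysis and gluconeogenesis outside the members, among them *PGM1*, *ENO3* and *PFKFB3*, 0 passed in either direction, and their differences ran from -0.18 to 0.10. *FBP2*, the other fructose-bisphosphatase, had -0.18.

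In the pentose phosphate pathway outside the members, 6 of 10 listed genes were measured, with 2 higher and 2 lower. Over all genes, 8.77% were higher and 5.43% lower. *TKTL1*, a transketolase-like gene, had 1.12 and 1.16 in ICM-PD, against 0.61 and 0.47 in ICM-DMSO, a difference of 0.60 (unadjusted p = 0.00220). It was above the pool on all 4 arrays without overlap, as *PGD* was. *TKTL2* had a difference of 0.28 (unadjusted p = 0.0179, limma), from a dim probe with a mean raw signal of 125. In the other direction, *RPE*, the ribulose phosphate epimerase, had -0.28 (unadjusted p = 0.0217, limma), but its groups overlapped. *PRPS1*, which makes phosphoribosyl pyrophosphate from ribose 5-phosphate, had -0.37 (unadjusted p = 0.00661, limma).

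Of 5 measured genes of pyruvate dehydrogenase and its control outside the members, 1 was higher and 0 lower, beside 8.77% and 5.43% of all genes. This was *PDHX*, a structural subunit, with 0.67 and 0.31 in ICM-PD and 0.28 and 0.07 in ICM-DMSO. Its difference was 0.32 (unadjusted p = 0.0178, limma). *PDK2* and *PDK3* had positive differences of 0.15 and 0.18 that did not pass. Of 15 other TCA and connected enzymes, 1 was higher and 1 lower, beside 8.77% higher and 5.43% lower of all genes. *SDHC*, a membrane anchor of succinate dehydrogenase, had a difference of 0.22 (unadjusted p = 0.0370, limma). It had -0.14 and 0.42 in ICM-PD and -0.39 and 0.22 in ICM-DMSO, so its groups overlapped. The mitochondrial malic enzyme *ME2* had a difference of -0.27 (unadjusted p = 0.0200, limma). *SDHC* had an uneven spot on ICM-PD replicate a and *ME2* on ICM-PD replicate b.

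A list named regulators of glucose metabolism, which also held genes of other functions, had 21 genes measured. Of these, 1 was higher and 2 were lower, beside 8.77% higher and 5.43% lower of all genes. *VEGFA*, which encodes an angiogenic growth factor, had a difference of 0.28 (unadjusted p = 0.0396). *BNIP3*, a mitochondrial protein of the BCL2 family, was among the lower genes, but its spot on ICM-PD replicate a was uneven and below background (raw signal 21.9), so its difference of -0.40 carries little information. *MLXIP*, a glucose-sensing transcription factor, had -0.30 (unadjusted p = 0.0141), with an uneven spot on ICM-PD replicate a. *HIF1A* and *MYC* had differences of -0.22 and -0.13 and did not pass.

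**Figure D5:**
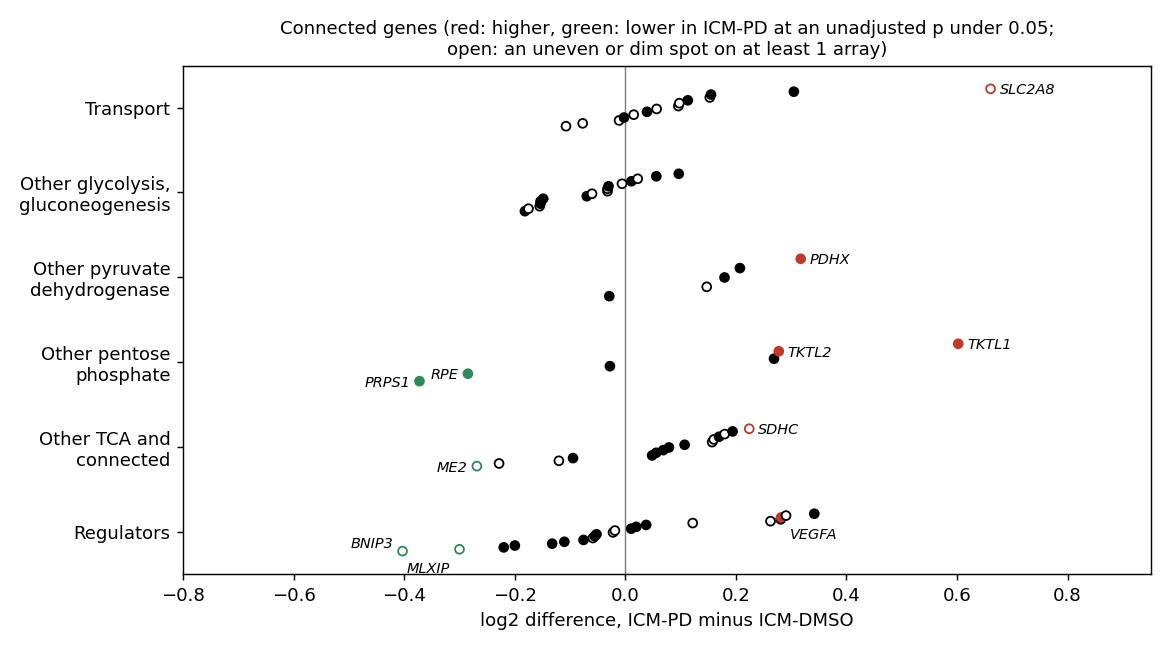
Log2 difference (x axis, ICM-PD minus ICM-DMSO) of genes in 6 lists connected with the enzymes (y axis), 1 point a gene, spread within a list by rank. Red marks genes higher and green genes lower in ICM-PD at an unadjusted p under 0.05, and open points are genes with an uneven or dim spot on at least 1 array, among them *SLC2A8* at 0.66. *TKTL1* at 0.60 and *PRPS1* at -0.37 had uniform spots.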

How the data were processed

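The arrays carried 43653 bovine probes, each sample against the blastocyst pool. The authors deposited intensity values of each spot from Imagene (mean, median and SD of pixels, local background), which are neither background-subtracted nor normalized. The authors also deposited log2 ratios, normalized by loess and corrected for dye bias. A regression of raw log2 Cy5 over Cy3 on these ratios had slopes of -1.04, -1.04, 1.05 and 1.03, which showed the ratios to be ICM over pool. Their column medians were 0.0207 and 0.0142 for ICM-PD a and b and 0.00301 and 0.0114 for ICM-DMSO a and b, and how they were centred is unknown.

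The work was done in R 4.3.3 with limma 3.58.1. Spot means were corrected with the local background median by normexp (offset 50) and normalized by loess, with weight 0 for 1567 control spots. A fit on group and dye (1 residual degree of freedom, prior 2.90) was adjusted by Benjamini-Hochberg over all probes. The test was two-sided. Dye orientation follows the replicate letter, which makes the dye term the replicate block, and deviations of same-letter arrays correlated at 0.454 across probes. The study calls its replicates biological, but the labels name no separate cultures, so the p-values measure only the spread between these samples, which may be partly technical, and 2 arrays a group limit the precision. A probe was above background over the 95th percentile of 757 negative control spots.

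Symbols came from the platform annotation (1 for 27952 probes, several for 0, none for 15701), with 1831 probes updated through RefSeq of assembly ARS-UCD2.0. No coordinates or sequences are given. A gene was its brightest probe, since the most 3′ probe used in the study is not known here. Array values were given for members with an unadjusted p under 0.05 or a difference of 0.5 or more, for the 3 highest and 3 lowest against the pool and for isozymes, and other genes by the same thresholds. Values of further members and of well-known connected genes were added after they were seen. The members and lists were chosen with earlier results of these data known. Alternatives covered background correction, scaling, the replicate block, probe choice, a filter on dim probes, the authors' ratios, leaving out each array and, chosen after seeing the data, uniform spots.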

Additional observations from a re-analysis of the deposited data

How the results depend on the processing

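The direction of all 8 members called at an unadjusted p under 0.05 was kept in each alternative that could be run. For these 8 the groups did not overlap, so leaving out 1 array could not turn their sign. Dropping the replicate block leaves every estimate as it was. The kept direction in those fits is therefore no independent support. Of all 37 members, 18 changed sign in at least 1 alternative and 19 in none. Against 6 members higher and 2 lower, 2 and 6 were called with median centring, 3 and 1 with no replicate block (group alone), 1 lower without background correction and 4 lower with the background mean, and 2 to 6 higher and 0 to 5 lower with 1 array left out, where the replicate block was dropped as well (3 and 0 without ICM-DMSO replicate a, 2 and 1 without ICM-DMSO replicate b, 5 lower without ICM-PD replicate a). Adjusted calls were 0 among the members, 1 without background correction (*FBP1*) and 2 with the authors' ratios (*FBP1*, *TKT*). Over the whole table they were 0, 43 without background correction, 319 with the authors' ratios, 65 with uniform spots and 0 to 101 with 1 array left out (42 without ICM-PD replicate a, 101 without ICM-PD replicate b). The members' median difference was 0.06, -0.067 with median centring, 0.00039 with all probes averaged and -0.0097 to 0.084 with 1 array left out (-0.0097 without ICM-DMSO replicate b). Over all genes, 1100 were higher and 681 lower, 765 and 828 with the background mean and 302 and 1789 with median centring. Median centring turned the sign of *HK2* (-0.047), *ALDOA* (-0.15), *ALDOC* (-0.067), *PGAM1* (-0.058), *ENO2* (-0.051), *LDHA* (-0.10), *PDHA1* (-0.037), *PDHB* (-0.067), *IDH2* (-0.10), *SUCLG1* (-0.13), *SUCLG2* (-0.041), *MDH1* (0.014) and *MDH2* (-0.16). The mean of all probes turned *ALDOC* (-0.035), *PGAM1* (-0.21), *ENO2* (-0.016) and *FH* (-0.091), uniform spots *ENO2* (-0.070), *PDHA1* (-0.14) and *FH* (-0.32), and the background mean *ENO2* (-0.0070). *PFKL* took -0.27 when no background was removed and -0.23 in the ratios of the authors, and *MDH1* was 0.0052 with only probes above background. With 1 array left out, 13 members took both signs, over -0.13 to 0.19 for *ALDOA*, -0.088 to 0.11 for *ALDOC*, -0.46 to 0.044 for *TPI1*, -0.022 to 0.29 for *PGAM1*, -0.066 to 0.14 for *ENO2*, -0.0099 to 0.13 for *LDHA*, -0.12 to 0.30 for *PDHB*, -0.019 to 0.16 for *IDH2*, -0.0064 to 0.36 for *IDH3B*, -0.37 to 0.056 for *IDH3G*, -0.11 to 0.20 for *SUCLG1*, -0.14 to 0.38 for *SUCLG2* and -0.046 to 0.17 for *MDH2*. The cause of these changes was not tested. The fit with 1 array left out assumes that the lone array of a group varies like the other group.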
